A study of Mus musculus with 25 samples.

Results

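The non-clustered protocadherins are single genes of the cadherin superfamily that lie outside the large Pcdha, Pcdhb and Pcdhg clusters. The 9 members described here were found by gene symbol in the table of expression values: Pcdh1, Pcdh7, Pcdh8, Pcdh9, Pcdh10, Pcdh17, Pcdh18, Pcdh19 and Pcdh20. They make up 9 of the 37406 genes listed, and each had 1 row. The members were chosen by name with their levels and contrasts in these same 25 libraries in view, so the members' values are given as a description, with no p-value of their own. The study profiled the palate of wild type CD1 mouse embryos at E14.5, while the palate is forming, by laser capture microdissection and RNA-Seq. The groups were 8 compartments: anterior medial, anterior lateral, anterior oral, anterior nasal, posterior medial, posterior lateral, posterior oral and posterior nasal palate, with 3 libraries each and 4 for anterior nasal. Medial with lateral and oral with nasal divide the shelf in different directions, so a medial and an oral capture can cover the same tissue. The labels give no treatment, nor the number of embryos behind a library. The study calls the replicates biological, and adjusted p-values below measure the spread between these libraries.

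Protocadherins are transmembrane adhesion proteins with a row of extracellular cadherin repeats and cytoplasmic tails that differ from those of the classical cadherins. They bind weakly between cells, mostly like to like, and are known for sorting cells, for guiding axons and for steering the actin cytoskeleton at cell contacts. Pcdh1, Pcdh7 and Pcdh9 belong to the delta1 subfamily, whose tails can bind protein phosphatase 1. Pcdh8, Pcdh10, Pcdh17, Pcdh18 and Pcdh19 belong to the delta2 subfamily, several of which recruit the WAVE complex, a driver of branched actin. Pcdh20 is usually set beside these subfamilies. In the embryo several members are known from somites, neural crest derivatives and brain nuclei, where neighbouring cell groups carry different members.

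The promoters of the 4 delta2 members that reached 5 RPKM in 3 or more libraries are shown because the compartment differences described below turn mostly on them. Each run is the 250 bases before the annotated start in RefSeq (GRCm38.p6), read 5′ to 3′ on the gene's own strand. Capitals mark CCAAT or its reverse complement, the letters that NF-Y is known to bind.
Pcdh10, chr3:45378148-45378397, plus strand: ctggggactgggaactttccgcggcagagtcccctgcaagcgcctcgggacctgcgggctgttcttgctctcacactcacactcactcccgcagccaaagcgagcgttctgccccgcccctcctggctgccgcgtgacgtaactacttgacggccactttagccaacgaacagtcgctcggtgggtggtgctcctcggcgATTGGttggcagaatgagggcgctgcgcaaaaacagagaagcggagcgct
Pcdh17, chr14:84443313-84443562, plus strand: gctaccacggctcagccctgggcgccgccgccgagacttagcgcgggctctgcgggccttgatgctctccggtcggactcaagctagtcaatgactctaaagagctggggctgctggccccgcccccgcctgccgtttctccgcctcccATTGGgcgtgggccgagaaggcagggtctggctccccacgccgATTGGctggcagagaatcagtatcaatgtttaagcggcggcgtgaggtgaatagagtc
Pcdh18, chr3:49757317-49757566, minus strand: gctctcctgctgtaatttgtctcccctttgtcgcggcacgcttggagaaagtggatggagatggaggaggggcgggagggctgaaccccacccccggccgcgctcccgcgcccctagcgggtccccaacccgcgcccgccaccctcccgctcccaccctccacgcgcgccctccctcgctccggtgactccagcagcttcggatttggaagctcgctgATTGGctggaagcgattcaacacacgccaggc
Pcdh19, chrX:133688994-133689243, minus strand: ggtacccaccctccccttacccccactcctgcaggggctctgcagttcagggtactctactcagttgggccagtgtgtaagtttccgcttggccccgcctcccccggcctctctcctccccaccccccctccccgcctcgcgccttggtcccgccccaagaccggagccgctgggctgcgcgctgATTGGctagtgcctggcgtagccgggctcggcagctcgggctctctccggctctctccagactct
The match nearest the start began 50 bases before it in Pcdh10, 58 in Pcdh17, 32 in Pcdh18 and 65 in Pcdh19.

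A window of 300 bases, from 250 before to 50 after the start, was found for 8 of the 9 members, with Pcdh1 not in the table. On either strand CCAAT was found in the windows of 7 of those 8 members, all but Pcdh7, and in 37.4% of all 32851 windows. The longer run GATTGGNT, picked after these sequences were seen and holding the reverse complement of CCAAT, was found on either strand in the 4 delta2 promoters shown and in 6.71% of all windows. On either strand GGGCGG, the GC box, was in the same 4 of the 8 members and 35.7% of all windows, and TATAAA was in 1 member, Pcdh8, and 13.6%. The palindrome CANNTG, the E-box, was in 2 members, Pcdh7 and Pcdh19, against 72.3% of all windows, and TAATTA was in none of the 8 and in 5.29%. These runs of letters are descriptions of the windows and none was tested as a site. CpG content also differed among members. The observed over expected ratio of CG was 0.824 in Pcdh10, 0.822 in Pcdh17 and 0.778 in Pcdh18, against 0.281 in Pcdh20 and a median of 0.384 over all windows.

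The read total that the RPKM values rest on, worked out from the steps between low values, was 1.64 to 6.56 M reads per library (median 3.27 M). It is lower than the sequencing depth the study states, and the authors removed duplicate reads and reads with several alignments before computing RPKM. At 10 RPKM (reads scaled to transcript length in kb and to the library total in M reads) on a transcript of 5000 bases, counting error alone gave a coefficient of variation of 5.52% to 11%, and 1 RPKM on such a transcript stood for 8.20 to 32.8 reads. These errors, and the limits given below for a count of 0, cover counting only. Posterior medial replicate 2 had 11264 genes at 1 RPKM or more, against a median of 13807, and a mean correlation of 0.652 with the other libraries of its compartment. Anterior oral replicate 1 was the shallowest library and had a mean correlation of 0.703. In the alignment names the 25 libraries fall into 8 sequencing runs, and posterior medial replicate 1 and posterior lateral replicate 1 were each alone in a run. Within anterior and within posterior palate, lateral and medial libraries shared no run, so compartment and run cannot be told apart in those comparisons. Palate mesenchyme markers were present throughout: Prrx1 ran from 36.1 to 184 RPKM and Twist1 from 42.7 to 233. The summed level of 10 epithelial markers was 23.1 to 153 RPKM, and in such bulk samples fewer cells of a type and less RNA per cell cannot be told apart.

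Pcdh18 was by far the most abundant member. Across the 25 libraries it ran from 58.3 to 108 RPKM with a median of 81.2, above 98.9% of all genes in mean level, and it took 31.1% to 60.4% of the summed RPKM of the 9 members in a library. Pcdh7, Pcdh9, Pcdh19, Pcdh17 and Pcdh1 followed with medians of 20.6, 16.2, 15.1, 14.2 and 11.5 RPKM. Pcdh10 had a median of 4.01 RPKM and ran from 0.879 to 28.9. Pcdh20 and Pcdh8 were low everywhere, with medians of 0.894 and 0.152 RPKM and highest values of 2.33 and 2.34. In all, 7 of the 9 members, all but Pcdh8 and Pcdh20, reached 5 RPKM in 3 or more of the 25 libraries.

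**Figure D1:**
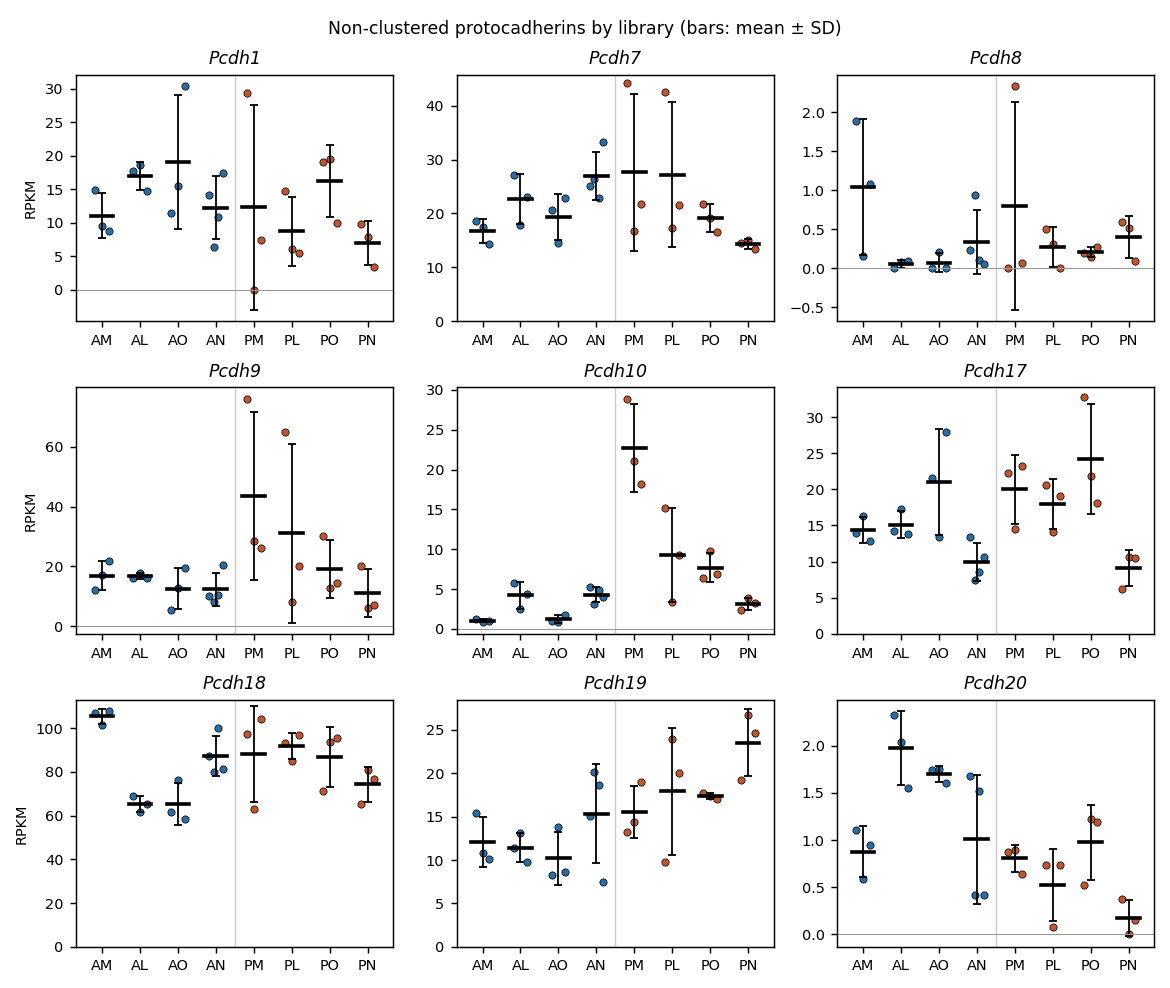
RPKM of the 9 members (vertical axes, a separate linear scale for each gene) in the 25 libraries, by compartment: A anterior in blue, P posterior in orange, and M medial, L lateral, O oral, N nasal. Points are libraries, horizontal bars the mean and whiskers the SD (n = 3, and 4 for AN). Pcdh18 stays between 58.3 and 108 RPKM, while Pcdh10 reaches 18.2 to 28.9 RPKM in PM and 0.879 to 1.30 in AM.

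Between compartment means, Pcdh18 varied 1.62-fold and Pcdh7 1.93-fold. Pcdh19, Pcdh17 and Pcdh1 varied 2.31-fold, 2.66-fold and 2.72-fold, and Pcdh9 varied 3.92-fold. Pcdh10 varied 21.5-fold. When each member's compartments were put in order of their means, neighbours in that order were separate, with no library in the range of the other group, at 3 of 7 steps for Pcdh10 and at 1 of 7 for Pcdh18. In the other 7 members every pair of neighbours overlapped. Such steps were not counted over all genes, so these counts have no background share. For Pcdh10 the order was posterior medial, posterior lateral, posterior oral, anterior nasal, anterior lateral, posterior nasal, anterior oral and anterior medial. Its separate neighbours were posterior medial and lateral, posterior oral and anterior nasal, and posterior nasal and anterior oral. For Pcdh18 the separate neighbours were the top pair, anterior medial and posterior lateral.

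**Figure D2:**
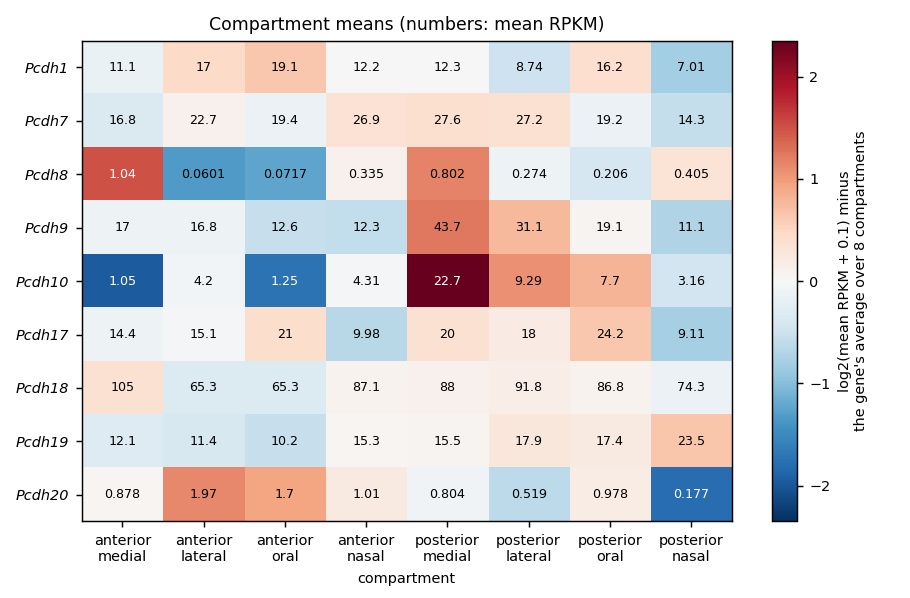
Mean RPKM (numbers in cells) of each member in each compartment. Colour is log2(mean RPKM + 0.1) minus the gene's average over the 8 compartments, red for higher and blue for lower. The Pcdh10 row runs from 1.05 RPKM in anterior medial to 22.7 in posterior medial, and the Pcdh18 row from 65.3 to 105.

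Differences between compartments were fitted on log2(RPKM + 0.1) with limma over all genes that passed an expression minimum, a level of 5 RPKM reached in 3 or more of the compared libraries, or of 10 RPKM in 6 or more for posterior against anterior. A gene was called at a Benjamini-Hochberg adjusted p under 0.05 over all genes tested. Differences are on this log2 scale with their standard errors, and they understate the change of genes near 0. Of 6 members tested in anterior lateral against anterior medial, 1, Pcdh18, was called, against 2.51% of all genes. None of these 6 passed the study thresholds there (unadjusted P under 0.05 and fold change over 2), against 2.37%. Of the 6 tested, only Pcdh18 had groups that did not overlap, against 21.3% of all genes. Pcdh8, Pcdh10 and Pcdh20, under the minimum in this pair, passed those thresholds without overlap when no minimum was set. The share of all genes that did so without a minimum was not worked out. The Pcdh8 gap was between 2 reads in anterior medial replicate 2 and 1 read in anterior lateral replicate 3. In posterior lateral against posterior medial 0 of 7 members were called by limma and 1 had an unadjusted P under 0.05. The call share over all genes was 0.00%, with 159 genes at an unadjusted P under 0.05. One member, Pcdh10, passed the study thresholds and was the 1 without overlap, against 1.12% and 6.62% of all genes.

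In anterior oral against anterior nasal 0 of 6 members were called by limma and 1 had an unadjusted P under 0.05, again with 0.00% of all genes called and 318 at an unadjusted P under 0.05. Of the 6 tested, Pcdh17 passed the study thresholds, against 1.44% of all genes, and 2, Pcdh17 and Pcdh18, had groups that did not overlap, against 3.67%. Pcdh10, under the minimum in this pair, passed those thresholds without overlap when no minimum was set, a setting for which no share of all genes was worked out. Posterior oral against posterior nasal had 0 of 7 members called by limma, against 1.25% of all genes. An unadjusted P under 0.05 was found for 3 members and for 847 of all 10586 genes tested. The same 3, Pcdh1, Pcdh10 and Pcdh17, passed the study thresholds, against 3.50%. In that pair 5 of 7 members did not overlap, against 11.8% of all genes. Posterior against anterior had 0 of 6 members called, against 3.32%. There 1 member and 1321 of all 8608 genes had an unadjusted P under 0.05. None of these 6 passed the study thresholds or was free of overlap there, against 1.75% and 0.267%.

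Whether a compartment difference itself differed between posterior and anterior palate was fitted as an interaction. For lateral minus medial, 0 of 7 members were called by limma, with 0.00902% of all genes called. In that interaction 2 members and 373 of all 11089 genes had an unadjusted P under 0.05. For oral minus nasal, 1 of 7, Pcdh10, was called, with 0.0350% of all genes called. These shares are the background of each count, and the members were chosen with the contrasts known.

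Pcdh10, a delta2 member also known as OL-protocadherin, was high in posterior medial palate and low in anterior medial palate. The posterior medial libraries had 28.9, 21.1 and 18.2 RPKM. The anterior medial libraries had 1.30, 0.879 and 0.990 RPKM. Every posterior medial library was thus above every other library of the series, and the posterior minus anterior difference within medial palate was 4.29. In the run that holds both compartments, with 2 posterior and 3 anterior medial libraries, it was 4.11. Blood cell markers moved with it: the sum of 7 red cell genes was 874 to 1082 RPKM in posterior medial and 456 to 864 in anterior medial libraries, and that of 8 macrophage genes 141 to 242 and 54.1 to 153. Over the 8 compartment means the correlation of Pcdh10 was 0.78 with the red cell sum and 0.73 with the macrophage sum, as a description. The part of these cells in the levels of Pcdh10 was not tested.

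In posterior palate Pcdh10 was lower laterally, with 15.2, 3.40 and 9.26 RPKM. The lateral minus medial difference was -1.49 ± 0.57 (SE), and the groups did not overlap. In anterior palate the order was the reverse, with 5.81, 2.47 and 4.32 RPKM in the lateral libraries, all above the medial ones. Pcdh10 was under the expression minimum in that pair, and without a minimum the difference was 1.83 ± 0.34. The interaction was -3.33 ± 0.70 and was not called, but in a fit over all 25 libraries it was.

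On the oral-nasal axis the order was also opposite in anterior and posterior palate. Anterior oral libraries had 1.03, 0.928 and 1.78 RPKM, below the 5.29, 3.09, 4.83 and 4.01 of anterior nasal. Posterior oral libraries had 6.39, 9.78 and 6.94 RPKM, above the 2.40, 3.87 and 3.21 of posterior nasal. Neither pair overlapped. The difference was 1.26 ± 0.26 in posterior palate and, without an expression minimum, -1.73 ± 0.35 in anterior palate. Pcdh10 met the minimum in the posterior pair through the oral libraries alone, and in the interaction through those and 1 anterior nasal library. The interaction, 2.99 ± 0.41, was the one called. It was not called without a minimum, and it was called in 2 of 13 fits with 1 library left out, those without anterior oral replicate 3 or anterior nasal replicate 2. Within runs the anterior oral minus nasal difference was -1.13, -1.87 and -2.26 in 3 runs, and the posterior difference was 1.38 and 1.07 in 2 runs. With run as a covariate the interaction was 2.97 and with the replicate number as a block 3.02, and neither was called. Over all libraries, and without a minimum, posterior exceeded anterior palate by 1.78 ± 0.42, which was called in that fit although the ranges overlapped. By compartment the posterior minus anterior difference was 4.29 in medial, 2.56 in oral, 0.97 in lateral and -0.43 in nasal palate.

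**Figure D3:**
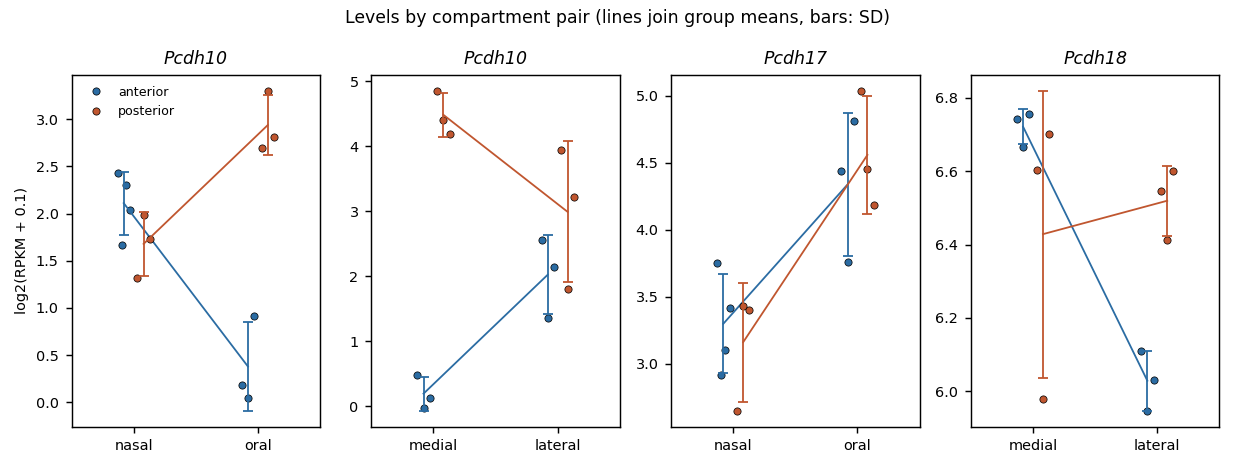
Levels on the log2(RPKM + 0.1) scale (vertical axis) of Pcdh10 by nasal and oral and by medial and lateral palate, of Pcdh17 by nasal and oral palate, and of Pcdh18 by medial and lateral palate. Points are libraries, bars the SD, and lines join group means, anterior in blue and posterior in orange. The anterior and posterior lines of Pcdh10 slope in opposite directions on both axes, with oral minus nasal at 1.26 in posterior palate, while both Pcdh17 lines rise from nasal to oral.

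Pcdh17, a delta2 member known from axon extension and from synapse development in the basal ganglia, was higher in oral than in nasal palate at both ends. Anterior oral libraries had 21.6, 13.5 and 28.0 RPKM against 13.4, 7.44, 8.50 and 10.6 in anterior nasal, a narrow separation between 13.5 and 13.4. Posterior oral libraries had 32.8, 21.8 and 18.1 RPKM against 6.17, 10.7 and 10.5 in posterior nasal. The oral minus nasal differences were 1.04 ± 0.33 and 1.40 ± 0.31, and the interaction was 0.36 ± 0.48. With all 25 libraries in 1 fit the posterior difference was called. Within runs the difference was positive in 5 of 5 pairs, from 0.66 to 2.39. Medial and lateral palate had means between those of oral and nasal palate. Anterior medial libraries had 13.9, 16.3 and 12.9 RPKM and anterior lateral libraries 14.2, 17.2 and 13.8. Posterior medial libraries had 22.3, 14.52 and 23.2 RPKM and posterior lateral libraries 20.7, 14.1 and 19.1. Lateral minus medial was 0.07 ± 0.14 in anterior and -0.14 ± 0.32 in posterior palate.

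Endothelial markers moved along the same axis. The summed level of 7 endothelial markers, all present in every compartment, was 133 to 209 RPKM in anterior oral and 77.4 to 135 in anterior nasal libraries, and 144 to 205 in posterior oral and 61.1 to 95.8 in posterior nasal. Over the 8 compartment means the correlation of Pcdh17 with this sum was 0.78, as a description, and for Pcdh12, a protocadherin known from endothelium, it was 0.98. Nerve and Schwann cell markers were also higher in oral palate, with 41.8 to 72.0 RPKM summed over 8 genes in anterior oral and 25.02 to 31.4 in anterior nasal. Osteoblast markers, 6 genes, summed to 282 to 457 RPKM in posterior nasal and to 46.9 to 57.1 in posterior oral libraries. The part of these cell types in the oral and nasal levels of any member was not tested.

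Pcdh18, a delta2 member that can bind the adaptor Dab1, was highest in anterior medial palate. The anterior medial libraries had 107, 101 and 108 RPKM, and the anterior lateral libraries 68.9, 61.6 and 65.2. The difference, lateral minus medial, was -0.69 ± 0.11, a 1.62-fold higher medial level, with libraries of each group close together. The call at adjusted p under 0.05 was lost in each of the 6 fits with 1 library left out, in which the difference ran from -0.73 to -0.65. With run as a covariate the difference was -0.58 and was not called. The share of all genes called in this pair, 2.51%, is 262 genes, and it was 55 to 195 genes with 1 library left out. Marker sums also separated these groups: 5 cartilage genes had 19.6 to 37.1 RPKM in anterior medial and 9.85 to 12.5 in anterior lateral libraries, the nerve and Schwann cell genes 15.3 to 23.2 and 32.5 to 47.6, and the endothelial genes 117 to 140 and 163 to 185. The part of these cell types in the level of Pcdh18 was not tested. All 3 anterior medial libraries came from 1 run, in which posterior medial replicates 2 and 3 had 63.0 and 104 RPKM, posterior oral replicates 2 and 3 had 93.7 and 95.5, and posterior nasal replicate 2 had 80.8. Only 1 of those 5, posterior medial replicate 3, was within the anterior medial range.

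In posterior palate no such medial excess was seen. The posterior medial libraries had 97.2, 63.0 and 104 RPKM and the posterior lateral libraries 93.3, 85.1 and 96.9, with a difference of 0.09 ± 0.30. The interaction was 0.78 ± 0.29 and was not called. The low value, 63.0, was that of the library with the fewest genes detected. Anterior oral libraries, with 61.6, 76.2 and 58.3 RPKM, were all below anterior nasal, with 87.1, 80.1, 100.1 and 81.2, and the difference was -0.42 ± 0.22. Within 3 runs it was negative in all 3, from -0.48 to -0.39. Posterior oral libraries had 71.1, 93.7 and 95.5 RPKM and posterior nasal libraries 65.4, 80.8 and 76.6, which overlapped, with a difference of 0.22 ± 0.22.

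Pcdh19, a delta2 member that acts together with N-cadherin and is X-linked, had a higher median in posterior than in anterior palate. Anterior libraries ran from 7.42 to 20.1 RPKM with a median of 11.4, and posterior libraries from 9.79 to 26.7 with a median of 18.3. Anterior and posterior libraries overlapped, and the posterior minus anterior difference was 0.58 ± 0.17. It was positive in all 4 compartments, from 0.36 in medial to 0.80 in oral palate, and in 4 of 4 comparisons within a run, from 0.47 to 1.36. It was not called as fitted. It was called at 1.01 with run as a covariate, and in 6 of 25 fits with 1 library left out, those without anterior medial replicate 1, anterior nasal replicate 2 or 3, posterior medial replicate 1 or 2, or posterior lateral replicate 1. Posterior oral libraries, at 17.7, 17.4 and 17.0 RPKM, did not overlap anterior oral at 8.26, 13.8 and 8.56. Posterior nasal had the highest levels, 19.3, 26.7 and 24.6 RPKM, above all posterior oral libraries, with an oral minus nasal difference of -0.42 ± 0.21. That is the compartment in which the osteoblast and cartilage marker sums had their highest medians. Over the 8 means the correlation of Pcdh19 was 0.67 with the osteoblast sum, 0.92 with the cartilage sum and -0.82 with the palate mesenchyme sum, as a description. The part of these cell types in the level of Pcdh19 was not tested. Anterior nasal was spread widely, at 15.1, 20.1, 18.7 and 7.42 RPKM, and so was posterior lateral, from 9.79 to 23.98.

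**Figure D4:**
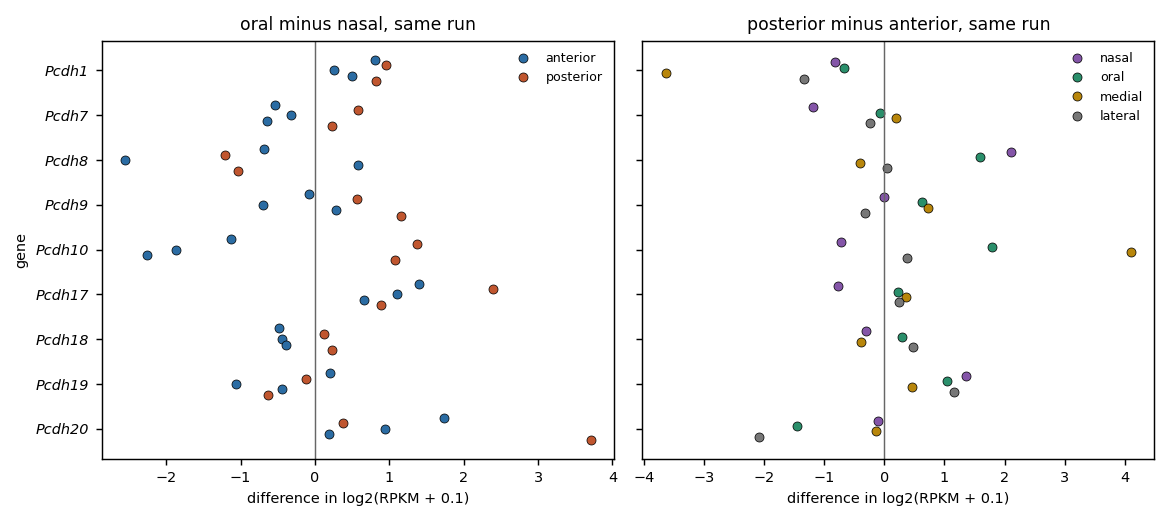
Differences between libraries of the same run in log2(RPKM + 0.1) (horizontal axes) for each member (rows). Left, oral minus nasal, anterior in blue and posterior in orange, 5 pairs; right, posterior minus anterior by compartment, 4 pairs. Pcdh17 lies above 0 in 5 of 5 oral minus nasal pairs and Pcdh19 in 4 of 4 posterior minus anterior pairs, while Pcdh10 lies below 0 in 3 anterior and above 0 in 2 posterior oral minus nasal pairs.

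Pcdh20 ran opposite to Pcdh19 but at a low level. Over the 8 compartment means of log2(RPKM + 0.1) the correlation of the pair was -0.89, and over 25 libraries -0.58. Anterior lateral libraries had 2.33, 2.04 and 1.56 RPKM and anterior oral libraries 1.75, 1.75 and 1.60. Posterior lateral libraries had 0.740, 0.0801 and 0.738 RPKM and posterior nasal libraries 0.377, 0 and 0.152. Anterior and posterior ranges did not overlap in lateral, oral and nasal palate and overlapped in medial palate. No share over all genes was worked out for these pairs. In reads worked out from the values, anterior lateral libraries had 34, 32 and 21 and posterior lateral libraries 23, 1 and 9. Posterior nasal libraries had 12, 0 and 2 reads, where a count of 0 allowed up to 0.149 RPKM. The gap in nasal palate was between 0.412 RPKM in anterior replicate 4 and 0.377 in posterior replicate 1, from 9 and 12 reads. Posterior oral libraries had 0.519, 1.22 and 1.19 RPKM, and the medial libraries 0.582 to 1.11 in anterior and 0.643 to 0.894 in posterior palate. Posterior was below anterior in 4 of 4 comparisons within a run, from -2.09 to -0.10, with -0.15 in medial and -0.10 in nasal palate. Oral was above nasal in 5 of 5, from 0.19 to 3.71, and the highest rests on the 0 of posterior nasal replicate 2. Without an expression minimum the posterior minus anterior difference was -1.20 ± 0.38 and was not called.

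Pcdh8, known as paraxial protocadherin and as Arcadlin, was near the detection limit. It was at 0 in 5 of 25 libraries, where 3 reads, the limit that a count of 0 allows, stood for 0.114 to 0.458 RPKM. Only 3 libraries reached 1 RPKM: anterior medial replicates 1 and 3, with 1.89 and 1.08 RPKM or 25 and 14 reads, and posterior medial replicate 2, with 2.34 RPKM or 22 reads. Anterior medial replicate 2 had 0.152 RPKM, and the other posterior medial libraries had 0 and 0.0648. The values above 1 RPKM were thus all medial, they all came from the same run, and neither medial group was uniformly above the others.

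Pcdh1, a delta1 member known from airway epithelium, was higher in oral than in nasal palate posteriorly. Posterior oral libraries had 19.1, 19.6 and 9.96 RPKM and posterior nasal libraries 9.82, 7.87 and 3.35. The groups were separated by 9.96 against 9.82, and the difference was 1.27 ± 0.43. In anterior palate oral libraries had 11.5, 15.4 and 30.4 RPKM and nasal libraries 14.2, 6.43, 10.9 and 17.4, which overlapped, with a difference of 0.61 ± 0.44. Within runs oral exceeded nasal in 5 of 5 pairs, from 0.26 to 0.95. The correlation of Pcdh1 with the endothelial marker sum over 8 means was 0.65. These means are on the log2 scale, where a value of 0 in posterior medial replicate 2 lowers the posterior medial mean of Pcdh1. The part of that 0 in the correlation was not tested. Anterior lateral libraries, at 17.7, 18.6 and 14.7 RPKM, lay mostly above anterior medial at 14.9, 9.51 and 8.80, a difference of 0.65 ± 0.21. It became a call in the 1 fit without anterior medial replicate 1. Endothelial markers were higher in the lateral libraries, as given for Pcdh18.

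Posterior medial replicate 2 listed Pcdh1 at 0, while replicates 1 and 3 had 29.4 and 7.49 RPKM. On a transcript of 5000 bases 3 reads in that library stood for 0.255 RPKM. The posterior lateral minus medial difference of 1.50 ± 2.01 rests on it, and without that library it was -0.91. The posterior minus anterior difference was -0.99 ± 0.57 and became -0.46 without the 2 libraries that stood apart. Posterior was below anterior in 4 of 4 comparisons within a run, from -3.64 to -0.67. The lowest, in medial palate, holds the 0 of posterior medial replicate 2, and without that library it was -0.52.

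Pcdh7, a delta1 member that can bind the SET protein, was the most even member after Pcdh18. Anterior nasal libraries had 25.1, 26.4, 23.0 and 33.2 RPKM, all above posterior nasal at 14.53, 15.2 and 13.4. Oral palate showed no such gap, with 20.6, 14.6 and 23.0 RPKM in anterior and 21.8, 19.2 and 16.5 in posterior libraries. Oral minus nasal was -0.49 ± 0.26 in anterior palate and 0.41 ± 0.21 in posterior palate, where the groups did not overlap, and the interaction was 0.89 ± 0.31 and was not called. The highest values, 44.3 and 42.6 RPKM, were in posterior medial replicate 1 and posterior lateral replicate 1, and the other libraries of those compartments had 16.8 to 21.8.

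Pcdh9, the third delta1 member, had the same 2 libraries on top. Posterior medial libraries had 76.1, 28.6 and 26.3 RPKM and posterior lateral libraries 65.0, 8.29 and 20.1. Anterior medial libraries had 12.03, 17.0 and 21.8 RPKM, below all posterior medial libraries, and in the run shared by both the difference was 0.73. The posterior minus anterior difference over all libraries was 0.52 ± 0.34. Oral minus nasal was 0.88 ± 0.50 in posterior palate, where the ranges 12.7 to 30.2 and 6.04 to 20.3 overlapped, and -0.05 ± 0.48 in anterior palate. Anterior lateral libraries had 16.2, 17.9 and 16.2 RPKM, within the anterior medial range.

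Those top libraries, each alone in its run, also had raised values of other long genes against the other libraries of their compartments. Pcdh9 spans 877 kb and Pcdh7 414 kb in the table's coordinates (mm9, per the submitters' processing notes). For each library the log2 level of a gene was set against its mean in the other libraries of the same compartment. Over 315 genes that span at least 300 kb, the median of this deviation was 0.617 in posterior medial replicate 1 and 0.268 in posterior lateral replicate 1. It was -0.679 in posterior medial replicate 2 and -0.216 to 0.175 in the other 22 libraries. Posterior medial replicates 1 and 2 each entered the mean set against the other, so their values depend on each other. The part of this shift in the levels of Pcdh7 and Pcdh9 was not tested.

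**Figure D5:**
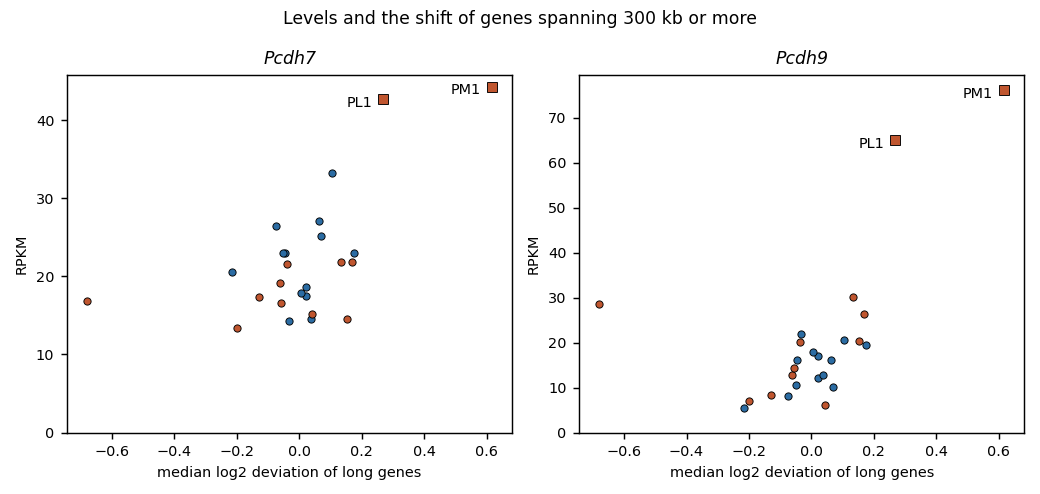
RPKM of Pcdh7 and Pcdh9 (vertical axes) against the median log2 deviation of 315 genes that span at least 300 kb (horizontal axes), 1 point per library, anterior in blue and posterior in orange. The deviation is from the mean of the other libraries of the same compartment. Squares mark posterior medial replicate 1 (PM1) and posterior lateral replicate 1 (PL1), each alone in its run, at 44.3 and 42.6 RPKM for Pcdh7 and 76.1 and 65.0 for Pcdh9.

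In mm9 coordinates of the table, Pcdh10 spans chr3:45182320-45238501, Pcdh18 chr3:49547218-49561238, Pcdh17 chr14:84843370-84936867 and Pcdh19 chrX:130117400-130223532. Pcdh8, Pcdh17, Pcdh20 and Pcdh9 lie on chromosome 14 in that order, with gaps of 4.67, 3.93 and 4.54 Mb, and Pcdh10 and Pcdh18 lie 4.31 Mb apart on chromosome 3. Between Pcdh10 and Pcdh18 the table lists 21 genes, of which 1 reached 5 RPKM in 3 or more libraries. Over 8 compartment means the correlation between neighbours was 0.14 for Pcdh10 with Pcdh18, -0.35 for Pcdh8 with Pcdh17, 0.51 for Pcdh17 with Pcdh20 and 0.14 for Pcdh20 with Pcdh9. The highest correlation between members past the minimum was 0.74, for Pcdh9 with Pcdh10, both highest in posterior medial palate, and over 25 libraries it was 0.55.

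The genes most like a member over the 8 compartment means, among 11913 genes that reached 5 RPKM in 3 or more libraries, were found by Pearson correlation. For Pcdh10 they were Tspan5, Tgoln1 and Hdac9, with 0.96, 0.94 and 0.94. For Pcdh17 they were Gngt2, Cd151 and Adcy8, with 0.95, 0.94 and 0.94. For Pcdh18 they were Creb3l2, Bpgm and Mir302d, with 0.98, 0.94 and 0.94, and for Pcdh19 Clec11a, Ets2 and Nr2c2ap, with 0.98, 0.97 and 0.97. For Pcdh1 they were Lrrc8b, Enpp1 and Lmbrd1 (0.99, 0.99 and 0.98), for Pcdh7 Pou3f3, Egfl6 and 2900092D14Rik (0.96, 0.95 and 0.95), and for Pcdh9 Lrch2, Slc9a9 and Mid2 (0.96, 0.96 and 0.95). These values over 8 points are a description, and the points share libraries and depth. The means were taken on the log2 scale, where the 0 of Pcdh1 in posterior medial replicate 2 lowers its posterior medial mean. On that scale posterior minus anterior was -1.95 for Pcdh1 in medial palate, although its mean RPKM was 12.3 in posterior and 11.1 in anterior libraries. The part of that 0 in the correlations of Pcdh1 was not tested.

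Other genes of the family and its partners were tested in the same fits, and none of them is a member. Of 32 tested in anterior lateral against medial, 2 were called with limma and Benjamini-Hochberg adjustment, against 2.51% of all genes, both higher laterally. Cyfip2, a subunit of the WAVE complex that delta2 protocadherins recruit, had 9.87 ± 2.46 RPKM in lateral and 1.82 ± 0.440 in medial libraries (SD, n = 3), a difference of 2.38 ± 0.23 (adjusted p = 0.00344, limma). Cyfip2 met the expression minimum in this pair through the lateral libraries alone. Fat3, a giant cadherin, differed by 0.78 ± 0.14 (adjusted p = 0.0319, limma), and its adjusted p by limma reached 0.142 with 1 library left out. With run as a covariate neither was called, with adjusted p = 1.00 for both by limma. The direction ran opposite to that of Pcdh18 in the same libraries.

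Posterior against anterior, 3 of 30 were called, against 3.32% of all genes, and all 3 are classical cadherins of type II. Cdh18 was higher in posterior palate by 4.43 ± 0.44 (adjusted p = 2.11e-07, limma) and Cdh20 by 2.79 ± 0.64 (adjusted p = 0.0111, limma), and both met the expression minimum through posterior libraries. In nasal palate the means of Cdh20 had the reverse order, 3.05 RPKM in anterior and 1.77 in posterior libraries. The fit pooled the compartments of each end, so its spread also holds differences between compartments. Cdh11, a mesenchymal cadherin, was lower by 0.51 ± 0.10 on the log2 scale (-0.51, adjusted p = 0.00346, limma), and with run as a covariate its adjusted p by limma was 0.378. In posterior oral against nasal, Cdh20 was the 1 of 32 called, against 1.25% of all genes. It had 20.5 ± 7.13 RPKM in oral and 1.77 ± 1.91 in nasal libraries (SD, n = 3). Its difference was 3.94 ± 0.67 (adjusted p = 0.0368, limma), and its adjusted p by limma was 0.152 with run as a covariate. Cdh20 met the minimum in this pair through the oral libraries alone, so it was tested in only the 3 fits that left out a nasal library. It was called in 1 of them, that without posterior nasal replicate 2, and the adjusted p by limma reached 0.168 in the others. Like Pcdh10, Cdh20 was highest in posterior medial palate, at 32.0 ± 5.46 RPKM, and lower in posterior nasal. None of the 37 tested in posterior lateral against medial or the 31 in anterior oral against nasal was called by limma. Nor was any of the 39 and 34 in the lateral-medial and oral-nasal interactions. In these 4 comparisons 2, 2, 3 and 4 of them had an unadjusted P under 0.05. Over all genes the counts were 159 of 10324, 318 of 10684, 373 of 11089 and 387 of 11442.

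The other non-clustered protocadherins were lower than most members. Pcdh12 had compartment means of 3.70 to 7.72 RPKM, highest in posterior oral and lowest in posterior nasal palate. Pcdh11x had 9.29 ± 2.88 RPKM in posterior lateral and 7.15 ± 2.39 in posterior oral libraries (SD, n = 3), and 1.88 to 3.10 elsewhere. Pcdh15, known from hair cells, had 7.22 ± 5.33 RPKM in posterior medial and 0.261 ± 0.239 in posterior nasal libraries. Of 58 clustered protocadherins in the table, 23 reached 5 RPKM in 3 or more libraries and 22 were at 0 in all libraries, and none was called in any of the 7 comparisons by limma. At an unadjusted P under 0.05 there were 2 of 18 tested in posterior oral against nasal and 1 of 7 in posterior against anterior. Over all genes there were 847 of 10586 and 1321 of 8608.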

How the data were processed

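The authors deposited 1 table of RPKM values per gene for the 25 libraries, made with GeneSpring from single-end reads after reads with more than 1 alignment and duplicate reads were removed. RNA was amplified with the Ovation V2 system and tagmented with Nextera. The submitters' processing notes name TopHat and mm9. Read counts were not used here, so neither a count test nor the study's pooled Audic-Claverie comparison was run, and strand is not stated. Groups came from the sample labels, and runs from alignment names in the headers of a supplementary table of the study.

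The values were taken as log2(RPKM + 0.1) and fitted with limma 3.58.1 in R 4.3.3 over all genes past the expression minimum, after the fits were tested on simulated data. Other steps used Python 3.11.15 with numpy 2.4.6 and pandas 2.3.3, and figures matplotlib 3.10.9. Depth was worked out from ratios between low values, of which 274 of 276 were the same by way of another library. At the total chosen 246 of 544 genes had a length listed in GENCODE M21, and at most 18 at any other multiple.

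The members and gene lists were chosen with earlier results of these data known. The rule for named genes was all 9 members, the 3 genes most like each member past the minimum, and each companion gene called in a comparison. The 58 companion genes are other protocadherins, Fat, Dachsous and Celsr cadherins, classical cadherins, WAVE and Ena/VASP proteins and other partners. Brk1 and Hbb-b2 were not matched, and Dab1 and Spp1, on several rows, were left out. Markers were 9 lists of cell types. Protein sequences were not analysed here.

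Replicate numbers were checked for pairing by the correlation of same-numbered libraries' deviations from their group means. It was 0.24, 0.22 and 0.12 for anterior oral and nasal palate, and libraries of unlike number were not compared. Of those pairs only replicate 1 shared a run, so these values do not establish pairs. The fits reported above were unpaired, and the replicate number entered only the alternative with a block. The alternatives were pseudocounts of 1 and 0.01, median centring, quantile normalization, no minimum, all 25 libraries in 1 fit, run as a covariate, the replicate block and each library left out. Chosen after seeing the data, 2 more left out posterior medial replicate 2 and anterior oral replicate 1, without and with the runs of 1 library.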

Additional observations from a re-analysis of the deposited data

Results flagged for a closer look

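Pcdh10 gave both results that differed between posterior and anterior palate. The oral minus nasal difference was higher in posterior than in anterior palate by 2.99 ± 0.41 on the log2 scale, a difference called by limma as fitted and not called without a minimum, with every anterior oral library below every anterior nasal one and every posterior oral library above every posterior nasal one. The lateral minus medial difference differed by -3.33 ± 0.70, with every anterior lateral library above every anterior medial one and the reverse in posterior palate. This second interaction was not called as fitted. Pcdh10 was chosen with these contrasts in view, so both are descriptions. Among the 4 anterior nasal libraries, the 1 group large enough, no member had a library set apart by Dixon's ratio.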

How the results depend on the processing

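No alternative reversed a called difference. Of 917 alternative values of the members' differences, 905 stayed within 1 SD of the value reported and 12 moved further. This SD is the spread within groups in the main fit, as moderated by limma. For posterior against anterior it also holds differences between compartments. In oral-nasal comparisons with anterior libraries, both added fits equal the fit without anterior oral replicate 1, so some of the values repeat. Many of these fits left out 1 library, which can seldom move a difference that far, so this count is a weak check. The posterior lateral minus medial difference of Pcdh1 ran from -0.91 to 3.92 and changed sign in 4 of 16 alternatives. Calls were less stable. In anterior lateral against medial the count of members called was 1, and it was 0 without a minimum, with all 25 libraries in 1 fit, with run as a covariate and with the replicate block, and 0 to 1 with 1 library left out, where the 1 was Pcdh1 and not Pcdh18. Companion genes there numbered 2, with 3 without a minimum (Cdh12, Cdh7 and Cyfip2, so Fat3 lost its call), 1 in the fit of all 25 libraries, 0 with run, 1 with the block and 0 to 2 with 1 library left out. In posterior oral against nasal, 1 member, Pcdh17, was called with all 25 libraries in 1 fit, and companion calls fell from 1 to 0 without a minimum and with run, and were 0 to 1 with 1 library left out. In posterior against anterior, 1 member was called with a pseudocount of 1, without a minimum (Pcdh10), with all 25 libraries grouped by compartment in 1 fit, with run, and in both fits added after seeing the data, and 0 to 1 with 1 library left out. Those calls other than Pcdh10 were of Pcdh19, and without a minimum 6 companions were called in place of 3. For lateral minus medial between posterior and anterior palate, 1 member, Pcdh10, and 2 companions, Cdh7 and Cyfip2, were called with all 25 libraries in 1 fit. For oral minus nasal between them the count of 1 became 0 with a pseudocount of 0.01, quantile normalization, no minimum, run, the block and both added fits, and 0 to 1 with 1 library left out. The cause was not tested. All genes called numbered 262 in anterior lateral against medial (157 without a minimum or with the block, 31 in the fit of all 25 libraries, 0 with run, 55 to 195 with 1 library left out), 132 in posterior oral against nasal (11 without a minimum, 68 and 15, and 12 to 57 with 1 library left out), and 286 in posterior against anterior (485 without a minimum, 143 with run, 231 to 414 with 1 library left out, 454 and 547 in the added fits). Without an anterior lateral library Cyfip2, and without a posterior oral library Cdh20, was under the minimum and not tested. The replicate block changed no other call, and the replicate numbers share a run in 3 of 12 pairs. In the last added fit posterior medial palate is 1 library, assumed to vary like the other groups. At 1 RPKM on 5000 bases, counting error alone is 17.5% to 34.9%, which limits Pcdh8, Pcdh20 and the low compartments of Pcdh10.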
